A study of Mus musculus with 3 samples.

Results

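Cdx1 and Cdx2 encode caudal-type homeobox transcription factors that give the intestinal epithelium its identity. The open chromatin around these genes was described by collecting every ATAC-seq peak that overlapped either gene body or the 50 kb on each side of it. Peaks of the 3 libraries that overlapped by at least 1 bp were merged into regions. This gave 8 regions out of 33564 in the whole series, 5 in the Cdx2 window and 3 in the Cdx1 window. They held 5 of the 16977 control peaks, 5 of the 18268 peaks of DKO replicate 1 and 7 of the 26648 peaks of DKO replicate 2.

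ATAC-seq marks accessible DNA by the insertion of sequencing adapters by the Tn5 transposase. Epithelial cells of the embryonic small intestine, called midgut in the labels, were taken at stage E16.5 and enriched with beads against EpCAM. The control, 1 library, carried the genotype Hnf4gCrispr/+, so 1 copy of Hnf4g was already mutated. The double knockout (DKO), 2 libraries, carried Shh-Cre; Hnf4af/f; Hnf4gCrispr/Crispr. In it the Cre recombinase, driven from the Shh gene that is active in gut endoderm, deletes floxed Hnf4a, and both copies of Hnf4g are mutated. Neither Shh-Cre nor floxed Hnf4a is listed for the control, and how many embryos entered a library is not given, so replicates may share technical or biological sources. HNF4A and HNF4G are paired nuclear receptors that bind the enhancers of many enterocyte genes.

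CDX2 is switched on early in the posterior endoderm and is needed for the intestinal rather than a foregut fate of the epithelium. CDX1 appears later, is highest in the proliferating part of the epithelium and shares much of its DNA binding preference with CDX2. Both are known to act together with HNF4 factors on intestinal enhancers. Cdx2 belongs to the ParaHox cluster with Pdx1 and Gsx1, homeobox genes of the pancreas and duodenum and of the nervous system.

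The region at the start of Cdx2 was open in all 3 libraries, so the promoter next to it is shown as the sequence that the accessible chromatin adjoined. It holds the 250 bases upstream of the RefSeq start site, from the minus strand of assembly GRCm38.p6, chr5:147307250-147307499, a later assembly than the mm9 of the peaks. Capitals mark matches to the octamer ATGCAAAT and to the CCAAT box, which is read here from the opposite strand.

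Cdx2 promoter: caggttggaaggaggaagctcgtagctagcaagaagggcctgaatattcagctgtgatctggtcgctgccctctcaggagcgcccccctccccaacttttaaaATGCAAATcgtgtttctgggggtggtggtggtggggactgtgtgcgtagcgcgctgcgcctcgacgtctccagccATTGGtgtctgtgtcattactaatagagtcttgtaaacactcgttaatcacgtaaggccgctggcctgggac

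These bases are 55.2% G or C and hold 13 CpG dinucleotides. On either strand they held no match to the HNF4 sequence CAAAGTCCA, to its core CAAAGTC, to the HNF4 direct repeat with a spacer of 1 base, or to the CDX sequences TTTATNG and TTTATG, where N is any base. TTTATG also matches inside some TTTATNG sites, and CAAAGTC lies within CAAAGTCCA. Among all 32851 RefSeq promoters of this length in the table, 0.384% held CAAAGTCCA, 3.84% CAAAGTC, 0.338% the direct repeat, 9.81% TTTATNG and 10.8% TTTATG. The octamer, a sequence bound by POU-domain factors, begins 147 bases upstream of the start and is found in 1.60% of promoters. The CCAAT box, the site of the factor NF-Y, lies within the 72 bases before the start and is found in 33.8% of promoters. These last matches were looked for after the sequence had been seen.

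Genes were placed on the peaks' coordinates by an offset, because the gene table at hand is on GRCm38 and the peak lists are on mm9, the build that the submitters' processing notes name. Over 5 Mb around Cdx2, an offset of 811.7 kb put 58 peaks on start sites (within 300 bp), against at most 20 for any offset more than 2 kb away. Around Cdx1, an offset of 159.55 kb put 44 peaks on gene ends, against at most 14. Other search spans and each library alone gave offsets within 175 bp of each other for Cdx2 and within 100 bp for Cdx1. The search over 10 Mb separated the Cdx2 offset least, with 60 peaks against 52 for the runner-up. Distances from a gene are therefore estimates, no finer than the 300 bp used to match peaks and start sites.

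**Figure D1:**
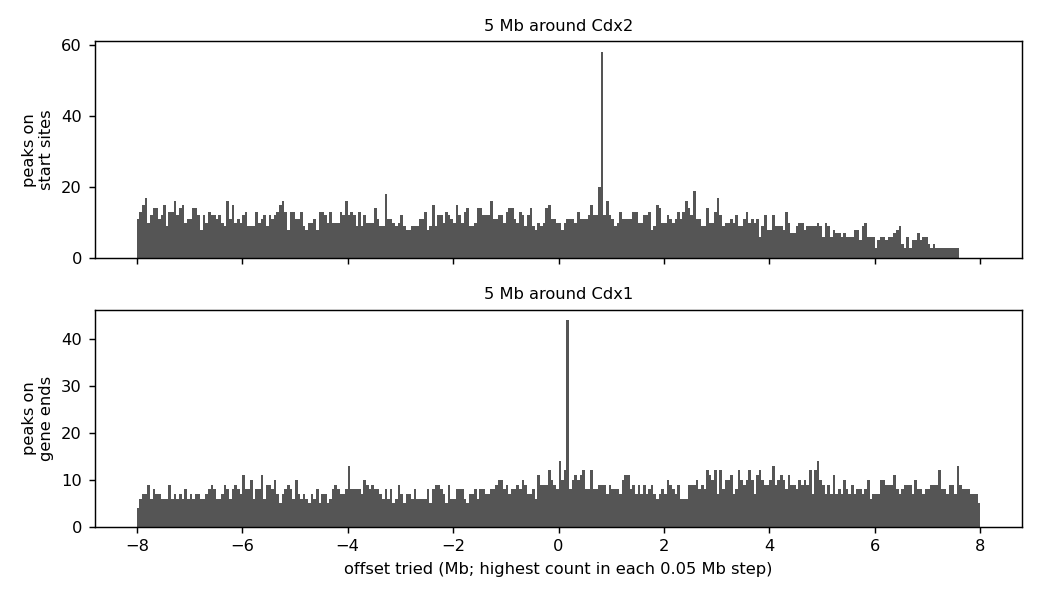
Number of peaks lying on annotated start sites (Cdx2) or on gene ends (Cdx1; y axis) for each offset tried between the gene table and the peak lists (x axis, Mb), over 5 Mb around Cdx2 and Cdx1. One offset stands out in each panel, with 58 peaks for Cdx2 and 44 for Cdx1.

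Cdx2 had an accessible start site in all libraries. The region, at mm9 chr5:148118344-148119180, was centred 0.19 kb downstream of the estimated start and overlapped the gene body. The control scored 42 there, DKO replicate 1 scored 21 and DKO replicate 2 scored 37. No common scale of the scores is stated, so each was replaced by its percentile rank among the peaks of the same list, with 100 for the strongest. The start region ranked at 93.5 for the control, 38.4 for DKO replicate 1 and 82.3 for DKO replicate 2. So the control stood highest and DKO replicate 1 by far the lowest.

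The control rank exceeded the DKO mean of 60.3 ± 31.0 (SD, n = 2) by 33.2 points at the Cdx2 start. The DKO replicates differed from each other by 43.9 points, which is more than the difference between the genotypes. That order turned when each list was limited to its 16977 top-scoring peaks, since the control then exceeded the DKO mean by 40.55 points and the DKO replicates differed by 38.4 points. With the full lists, the control stood 55.1 points above DKO replicate 1 but 11.2 points above DKO replicate 2. With 1 control library no test was made, since an exact permutation of the 3 labels cannot give a p-value below 0.333. Of all 10355 regions called in the 3 libraries, 3.11% had a control rank that exceeded the DKO mean by as much or more, and in 4.18% DKO replicate 1 lay as far or further below DKO replicate 2.

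The peak windows at the Cdx2 start also differed in position. Each deposited peak is a window of 1 fixed width, and its centre lay 109 bp downstream of the estimated start for the control, 69 bp for DKO replicate 2 and 305 bp for DKO replicate 1. At offset 811.7 kb the window reached 191 bp upstream of the estimated start in the control and 231 bp in DKO replicate 2. In DKO replicate 1 it stopped about at the estimated start itself. These reaches are finer than the 300 bp limit of the estimate and shift with the offset, found between 811.55 and 811.725 kb. Which windows enter the promoter bases shown was therefore not resolved. Distances between libraries do not depend on the offset. The centres of the DKO replicates were 236 bp apart, while the control and DKO replicate 2 were 40 bp apart. Among 10354 regions with 1 peak in each library, 5.85% had DKO centres at least as far apart, and the median distance was 61 bp.

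Downstream of Cdx2, 2 further regions were open in all libraries. The nearer one, chr5:148111147-148111865, was centred 1.09 kb beyond the annotated end of Cdx2 and touched no gene body in the table. Scores there were 30 (rank 78.8) for the control, 22 (42.4) for DKO replicate 1 and 32 (75.3) for DKO replicate 2. The control and DKO replicate 2 were 3.51 points apart there, and DKO replicate 1 was 32.9 points below its replicate. With lists of equal length the control stood 17.6 points above DKO replicate 2, so the small distance between them held for the full lists, of which that of DKO replicate 2 is the longest.

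The farther one, chr5:148103796-148104505, was centred 14.8 kb downstream of the Cdx2 start, inside the body of the long noncoding RNA gene Gm35112. The control scored 22 (rank 54.8), DKO replicate 1 scored 18 (24.7) and DKO replicate 2 scored 26 (63.0). Here DKO replicate 2 was the highest library in the full lists, and the control minus DKO replicate 2 difference was -8.24 points. The direction turned with lists of equal length, where the ranks were 54.8 for the control, 19.0 for DKO replicate 1 and 42.0 for DKO replicate 2. DKO replicate 1 was again the lowest, 38.3 points below DKO replicate 2 in the full lists and 23.0 points below it with equal lengths.

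At all 3 of these Cdx2 regions DKO replicate 1 ranked at least 25 points below DKO replicate 2, which over the series happened at 16.2% of regions called in all libraries. With lists of equal length its distance was 38.4, 23.2 and 23.0 points from the start region outwards, so that only the start region passed 25 points, against 7.95% of shared regions. The 3 regions come from the same libraries and neighbouring DNA and are not independent. In none of them did the control stand 25 points or more above each DKO library, against 2.63% over the series, or as far below each of them, against 12.3%. Control-minus-DKO-mean differences were 33.2, 19.95 and 10.9 points from the start region outwards, against a median of -5.05 points and an SD of 21.5 over all shared regions. All were smaller than the difference between the DKO replicates at the same region. With lists of equal length the differences were 40.55, 29.2 and 24.3 points, each larger than the distance between the DKO replicates, against a median of -0.29 points and an SD of 21.6. Whether the genotypes or the DKO replicates lay further apart at Cdx2 thus depended on the length of the lists. Equal lengths shortened only the DKO lists, since the control list has 16977 peaks. There, 3.5%, 7.87% and 10.7% of shared regions had as large a control-minus-DKO-mean difference, from the start region outwards. For DKO replicate 1 as far below DKO replicate 2, the shares were 2.82%, 9.09% and 9.42%. A smaller share of cells with an open site and a less open site in every cell cannot be told apart in these libraries of many cells.

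**Figure D2:**
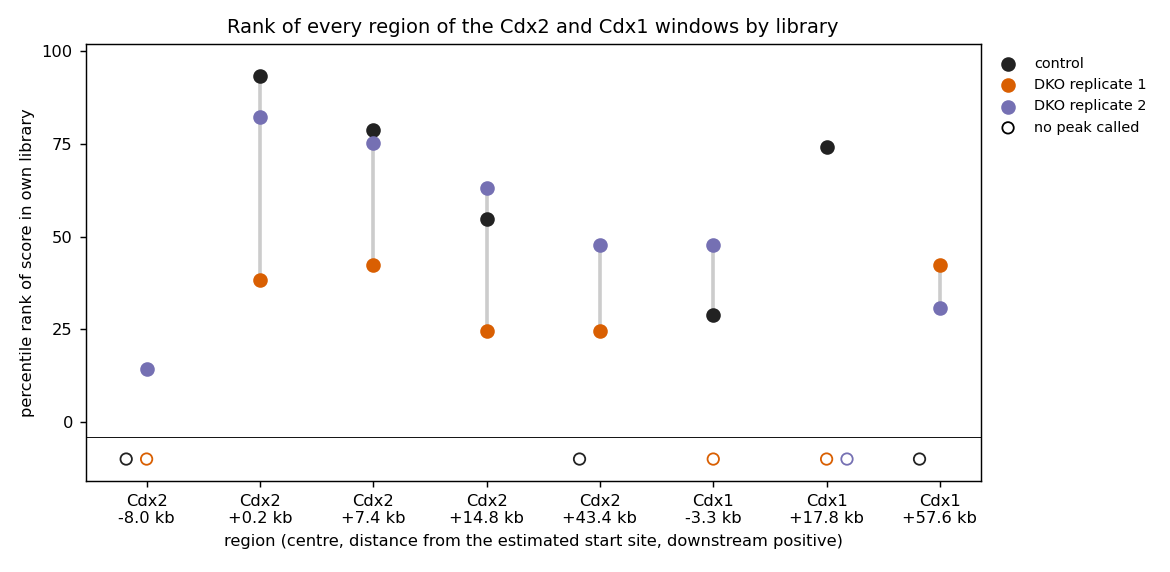
Percentile rank of the score in its own library (y axis) for the 8 regions, ordered by gene and by distance of the centre from the estimated start (x axis, kb). Filled points are libraries with a peak and open circles libraries without one. DKO replicate 1 lies below both other libraries at the 3 Cdx2 regions open in all libraries, and only the control has a peak beside the end of Cdx1.

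A DKO-only region, meaning that each DKO library had a peak and the control lacked one, lay at chr5:148075246-148075874. It was centred 43.4 kb downstream of the Cdx2 start but 6.24 kb from that of Pdx1, on its upstream side and within the long noncoding RNA gene Plut. Pdx1, the master factor of the pancreas and a duodenal gene, is known to be controlled by enhancers upstream of its start. The region scored 18 (rank 24.7) in DKO replicate 1 and 21 (rank 47.9) in DKO replicate 2, and the nearest control peak was 28.0 kb away. The windows of the DKO replicates overlapped almost wholly, in a region only 629 bp wide. No peak lay within 1 kb of the Pdx1 start in any library.

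Regions of such rank were often absent from the control. Of 888 regions within 10 rank points of it in both DKO libraries, 49.5% had no control peak. Over all regions of the series, 16.0% were DKO-only. The last Cdx2 region, chr5:148126654-148127254, was called in DKO replicate 2 alone with a score of 14 (rank 14.2), 8.01 kb upstream of the Cdx2 start at the end of Urad, a gene of uric acid breakdown. Regions called in DKO replicate 2 alone made up 27.2% of the series, and of 1485 regions within 5 points of this rank in that library, 67.1% had no partner in either other library.

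Of the 5 Cdx2 regions, 3 were called in all libraries, the class of 30.9% of all regions. None was control-only, the class of 13.0% of all regions. The window also held more peaks than most windows of its width. It held 3 control peaks, 4 of DKO replicate 1 and 5 of DKO replicate 2, against means of 0.7, 0.753 and 1.1 over 24203 consecutive windows of the same width of 106.3 kb, with chromosome Y left out. For the control 7.64% of windows held as many peaks or more, for DKO replicate 1 3.4% and for DKO replicate 2 2.92%. The consecutive windows were not chosen around genes and count peaks by their centre. The Cdx2 window counts peaks that overlap it. The body of Flt3, a receptor gene of blood progenitors that enters the window, held no peak there.

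The Cdx1 locus differed from Cdx2 in that no peak was called at its start. The gene was read as running on the minus strand, from general knowledge of the locus, since the start-site table used here holds no Cdx1 entry. At the offset used, no library had a peak within 1 kb of the estimated Cdx1 start or in the 17.3 kb gene body. A control peak, described below, lay within 300 bp of the 3′ end of the body. Whether the body holds that peak was therefore not resolved. Over 15319 protein-coding genes placed from the start-site table, Cdx1 not among them, 40.5% had a peak within 1 kb of a start in all 3 libraries. Another 6534 of them had none in any library, so a start without a call was common. A missing call means that no peak passed the caller's threshold, and does not show closed chromatin.

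The open region nearest to the Cdx1 start lay upstream of it, at mm9 chr18:61198689-61199474, with its centre 3.33 kb away and inside the predicted gene Gm52351. It was called in the control with a score of 17 (rank 29.0) and in DKO replicate 2 with a score of 21 (rank 47.9). In DKO replicate 1 the nearest peak was 56.4 kb away. The control minus DKO replicate 2 difference was -18.9 points, so 1 DKO replicate ranked above the control and the other had no call. With lists of equal length the direction turned, with ranks of 29.0 for the control and 18.15 for DKO replicate 2. Regions shared by the control and DKO replicate 2 alone made up 5.32% of the series, and of 573 regions within 10 points of both ranks, 19.7% had no peak in DKO replicate 1.

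The strongest Cdx1 region was control-only. It lay at chr18:61177664-61178264, centred 0.45 kb beyond the annotated 3′ end of Cdx1 and within 300 bp of it, so whether it reaches the last exon was not resolved. Its control score was 28, a rank of 74.2. The nearest peak of DKO replicate 2 was 20.6 kb away and that of DKO replicate 1 was 39.3 kb away, so neither had a peak close by.

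A control peak of this rank usually had a partner. Of 1626 control regions within 5 points of it, 12.9% had no peak in either DKO library, while control-only regions made up 13.0% of all regions, called in any library. The region kept its class when the lists had equal length and when only scores of at least 21 were used. This difference rests on 1 control library and 1 region, so its repeatability in controls is unknown.

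**Figure D3:**
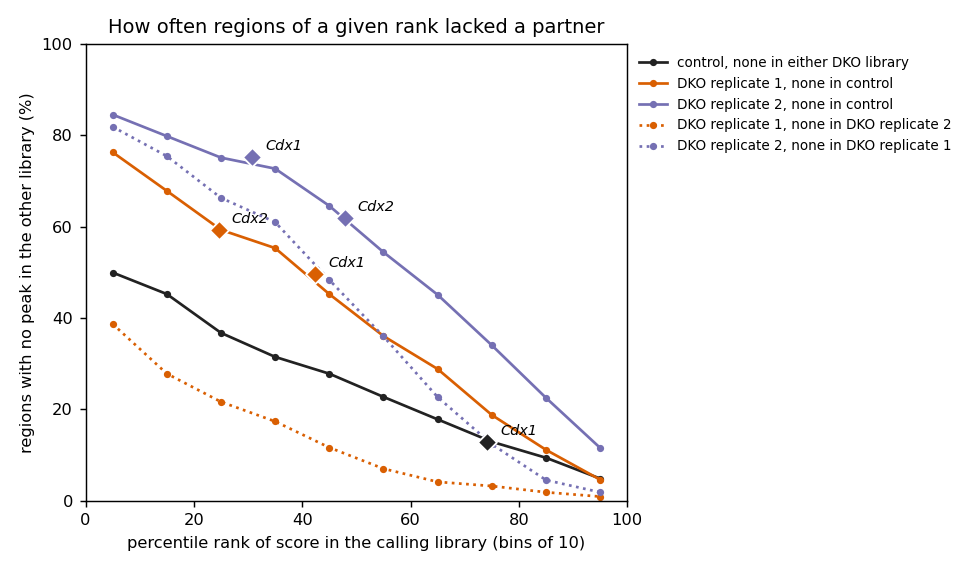
Share of regions with no peak in the named other library (y axis, %) by percentile rank in the calling library (x axis, bins of 10 points). Diamonds mark the control-only region at Cdx1 and the DKO-only regions of both windows at their ranks, with shares of 12.9% for the control-only region and 49.6% to 75.2% for the DKO-only regions, read in each calling library. Dotted lines compare the DKO replicates with each other.

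The other Cdx1 region, DKO-only, lay 57.6 kb downstream of the start in the body of Camk2a, a kinase gene of neurons, at chr18:61137752-61138508. It scored 22 (rank 42.4) in DKO replicate 1 and 17 (rank 30.8) in DKO replicate 2, and the nearest control peak was 39.2 kb away. Of 568 regions within 10 points of both ranks, 51.6% had no control peak, so an absence from the control was common at this strength. With lists of equal length the peak of DKO replicate 2 dropped out and the region was no longer DKO-only.

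The 3 Cdx1 regions thus fell into 3 different classes, and none was called in all libraries. Over the series only 30.9% of regions were, so 3 regions are too few to set Cdx1 apart. The window of 117.3 kb held 2 control peaks, 1 of DKO replicate 1 and 2 of DKO replicate 2, and 20.2%, 44.7% and 31.8% of consecutive windows of that width held as many or more. The body of Pdgfrb, a receptor gene that marks mesenchyme and pericytes, fills much of the upstream flank of Cdx1 and held no peak in any library. Slc6a7, a proline transporter gene of neurons on the other side, held none either.

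**Figure D4:**
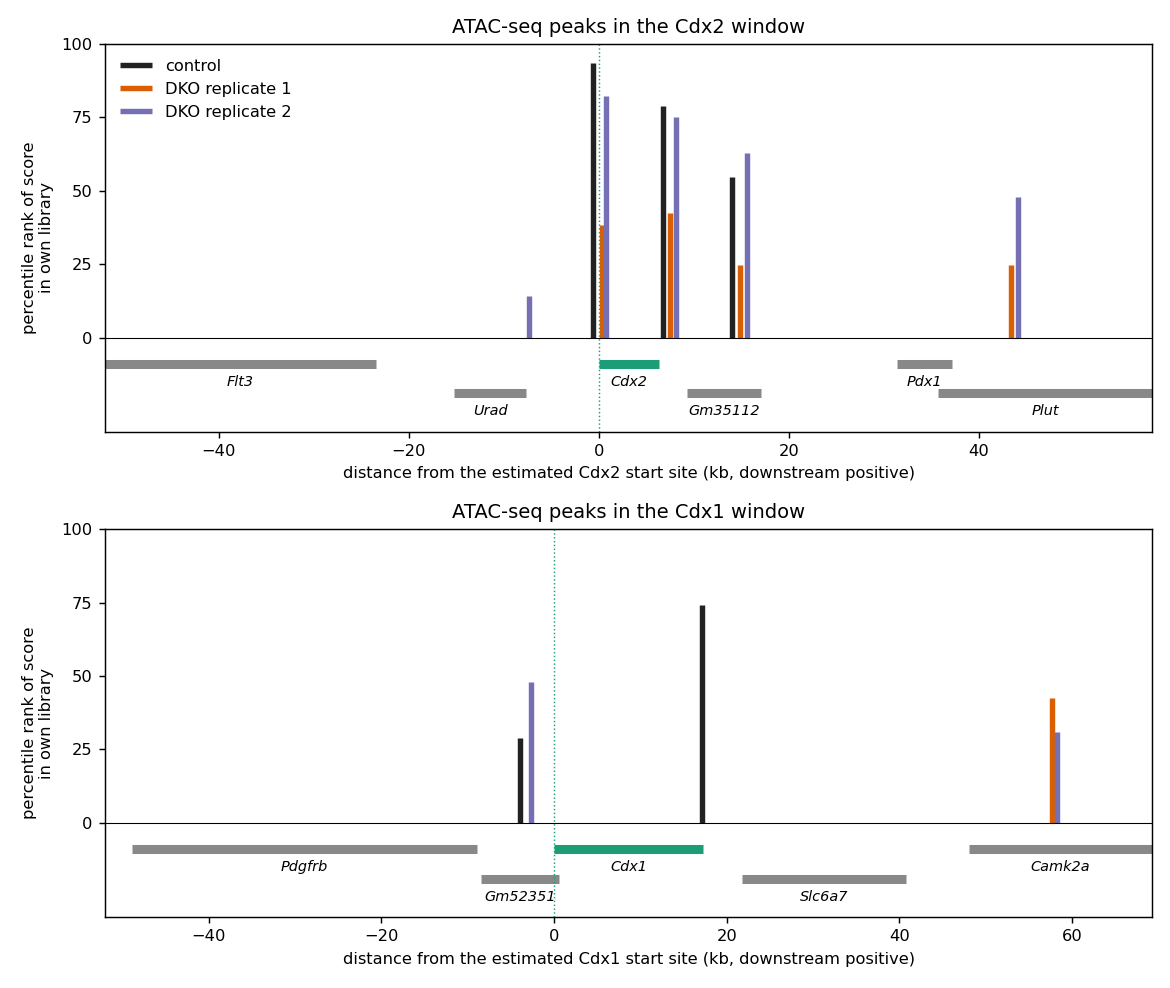
Peaks of the Cdx2 window (top) and the Cdx1 window (bottom) by distance from the estimated start site (x axis, kb), with the percentile rank of each peak as bar height (y axis). Bars of the control and of DKO replicate 2 are moved aside by 0.7 kb so that they can be seen, and horizontal bars below 0 are genes of the table. The Cdx2 start carries a bar of each library, and the Cdx1 start carries none. The control bar at the 3′ end of Cdx1 is drawn over the gene body because it was moved aside. Its peak is centred 0.45 kb beyond the estimated end.

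Other genes tied to CDX activity were read at their start sites, within 1 kb. Of 15 listed intestinal genes that CDX factors bind or activate, Cdx1 and Cdx2 included, 10 could be placed. The control had a start-site peak at 5 of these, DKO replicate 1 at 3 and DKO replicate 2 at 4. Over all placed protein-coding genes the shares were 44.5% for the control, 50.9% for DKO replicate 1 and 52.7% for DKO replicate 2. With only 10 genes, no difference between the libraries was read from these counts. Within 5 kb of a start, a distance to which the shares do not apply, the control had 7, DKO replicate 1 had 3 and DKO replicate 2 had 6. The genes called in all libraries were Cdx2 and Isx, a homeobox gene of vitamin A uptake, which scored 26 (rank 68.8), 27 (58.6) and 23 (54.7) in the control and DKO replicates 1 and 2.

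The control alone had a start-site peak at 3 of the 10 genes, Gpa33, Slc26a3 and Fabp2, against 1.53% of all placed protein-coding genes. Gpa33, a surface antigen of intestinal epithelium, had a control score of 61 (rank 98.7). The closest peak of DKO replicate 1 was 7.1 kb from the start and that of DKO replicate 2 was 127 kb from it. Slc26a3, the chloride-bicarbonate exchanger of the enterocyte, had a control score of 35 (rank 87.0), with DKO peaks 61.2 and 20.2 kb away. Fabp2, the intestinal fatty acid binding protein, had a control score of 23 (rank 58.8), with the nearest peak 6.1 kb away in each DKO library.

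Muc2, the mucin of goblet cells, was called only in the DKO libraries, with scores of 15 (rank 9.7) and 17 (rank 30.8), the class of 7.34% of all genes. Guca2a, the guanylin gene, had a peak in DKO replicate 2 alone, with a score of 20. Lct, Krt20 and Cdx1 had none within 1 kb in any library. The nearest peak to the Krt20 start was 1.1 kb away, in DKO replicate 2, just past this limit. That nearest to the Lct start was 4.6 kb away, in the control. The list was small and chosen with earlier results known, so it describes these genes and no more.

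**Figure D5:**
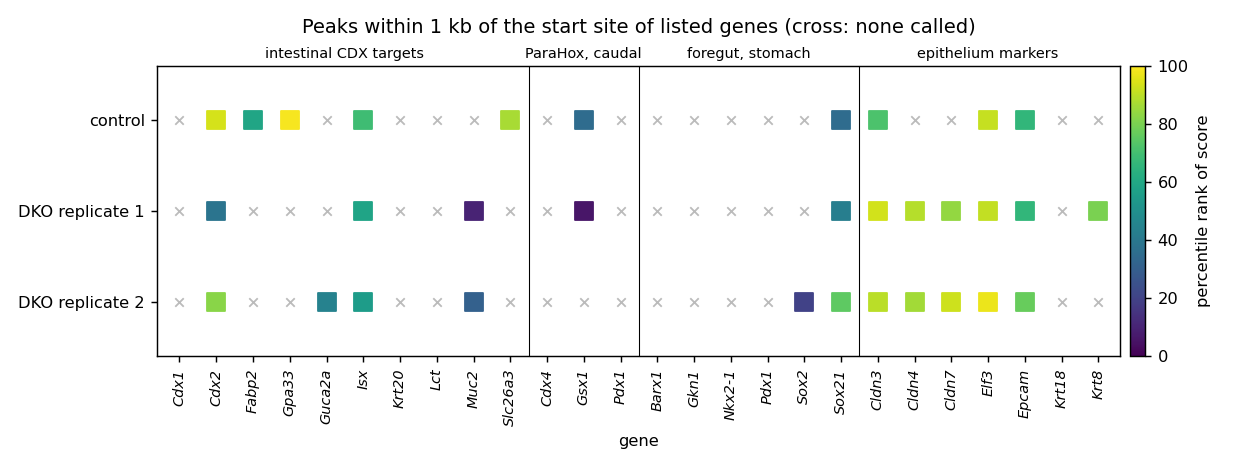
Peaks within 1 kb of the start of placed genes (x axis) in each library (y axis), coloured by percentile rank of the score. A cross marks no called peak. Cdx2 and Isx have a peak in all libraries, Gpa33, Slc26a3 and Fabp2 in the control only, and Cdx1 in none.

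Among the other ParaHox and caudal genes, Gsx1 had weak start-site peaks in the control (score 18, rank 34.8) and DKO replicate 1 (score 14, rank 5.61), and none in DKO replicate 2. Pdx1 and Cdx4, the caudal gene on chromosome X, had none, and Gsx2 could not be placed. Of 10 listed foregut and stomach genes 6 were placed. Sox21, a factor of the foregut, had a peak in all libraries, with ranks of 34.8, 42.4 and 75.3 in the control and DKO replicates 1 and 2. Sox2, the foregut counterpart of CDX2, had a peak in DKO replicate 2 alone, with a score of 15 (rank 19.8). Barx1, Nkx2-1 and Gkn1 had none in any library. The control and DKO replicate 1 thus each had 1 such call among 6 foregut genes, and DKO replicate 2 had 2, all below the shares of 44.5%, 50.9% and 52.7% over all genes.

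The gene whose start-site ranks came nearest to those of Cdx2 among 5 listed genes with a peak in all libraries was Epcam, with a summed rank distance of 60.7 points over the 3 libraries. Sox21 at 69.7 and Elf3 at 70.0 points followed, in the same order as with lists of equal length. None was close, since Cdx2 combined a high control rank with a low rank in DKO replicate 1. For Cdx1 no such likeness could be computed, as it had no start-site peak.

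Start sites of cell type markers were read in the same way. Of 7 placed epithelial markers, the control had a peak at 3, DKO replicate 1 at 6 and DKO replicate 2 at 5, among them Epcam in every library, beside shares of 44.5%, 50.9% and 52.7% over all genes. The marker Krt18 had none. Cldn4 and Cldn7, 2 of the 7, had one in both DKO libraries and not in the control, beside 7.34% of all genes. Of 6 placed mesenchymal markers the control had a peak at none, DKO replicate 1 at Vim and Acta2 and DKO replicate 2 at Vim. Of 2 placed neural markers, Elavl4 had a peak in both DKO libraries and not in the control. None of the 3 placed endothelial or 3 placed blood markers had one in any library. At most 2 markers of either kind were called in any library, against the same shares over all genes and 7.34% of genes called in both DKO libraries and not in the control. Their part in the DKO-only regions of both windows was not tested.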

How the data were processed

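ATAC-seq peaks of 1 control and 2 DKO libraries were analysed, grouped by sample title. The submitters' processing notes name FastQC 0.11.3, Bowtie2 2.2.6, deepTools 2.4.2, MACS 1.4.1 and the build mm9, without their roles. The authors deposited 1 peak list for each library, whose peaks are named MACS_peak and a number. The deposited score of each peak is a whole number, made by the authors with peak calling per library, whose meaning is not given in the sources used here. Each peak is a window of 1 fixed width. A score that follows read depth is not comparable between libraries, so only ranks within a library (mean rank of ties) were used. Sequencing depth is unknown.

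Genes of RefSeq GRCm38.p6 were shifted by the offset, within 8 Mb and in steps of 50 bp, that put most peaks on start sites over 5 Mb. For Cdx1, both ends of protein-coding genes were used. Listed genes were used where the best offset reached 10 peaks and 1.2 times the runner-up, and the 3 Mb search came within 500 bp. Of the listed genes, 20 had no start site in the table and 5 had no clear offset. These limits were set after the data had been seen. The offset search and the merging of peaks were tested on simulated data. Calculations used Python 3.11.15, numpy 2.4.6 and pandas 2.3.3.

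The members and lists were chosen with earlier results of these data known. All regions of both windows are described, so that no region was selected by its values. Alternatives were equal list lengths, a stricter score, other joining distances and flanks, and leaving out each DKO replicate.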

Additional observations from a re-analysis of the deposited data

How the results depend on the processing

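The Cdx2 window kept 2 to 3 regions called in all libraries and no control-only region under every alternative run, and the control-only Cdx1 region kept its class in each of them except that a second control-only region appeared (2 in all) without DKO replicate 2. The DKO-only regions were less stable. The DKO-only region of the Cdx1 window was lost (0) with equal list lengths, with a score of at least 21 and with a flank of 25 kb, and a flank of 100 kb gave 2. The DKO-only region of the Cdx2 window was lost (0) with the score of at least 21 and with a flank of 25 kb, which ends before it, while leaving out 1 DKO replicate gave 1 to 2 such regions. A flank of 100 kb raised the Cdx1 window from 3 to 6 regions, and leaving out 1 DKO replicate gave 0 to 1 Cdx1 regions shared by all remaining libraries. The control-minus-DKO-mean rank at the region 14.8 kb from the Cdx2 start reversed to -8.24 points without DKO replicate 1 and was 30.1 points without DKO replicate 2. At the Cdx2 start the same difference was 11.2 to 55.1 points in these comparisons, 40.55 points with equal list lengths and 52.2 points with the stricter score. Equal list lengths also turned the order of genotype difference and DKO replicate distance at all 3 shared Cdx2 regions. The region at 14.8 kb had no value with the stricter score, since the peak of DKO replicate 1 fell below it. Offsets 300 bp lower or higher, added after the data had been seen, changed none of the region counts of the windows. Peaks in the gene bodies and at the start sites were not recounted with these offsets. Start-site counts of listed genes are given per library, so leaving out a replicate does not change them, and of 27 other counts of listed genes under alternatives 11 changed, 7 of them by more than 1.5 times. No paired analysis was possible because there was 1 control library and the labels give no pairs.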

Other observations

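Beyond the windows, up to 100 kb from the gene bodies, 4 further regions were called. Upstream of Cdx1, a region inside Csf1r, a receptor gene of macrophages, was called in the control with a score of 23 (rank 58.8) and in DKO replicate 2 with a score of 11 (rank 1.86), and not in DKO replicate 1. A second region within Camk2a, 83.6 kb downstream of the Cdx1 start, was DKO-only, with scores of 15 (rank 9.7) and 16 (rank 25.4) in DKO replicates 1 and 2. A region 60.4 kb upstream of Cdx1 was called in DKO replicate 1 alone (rank 19.6), and one 95.3 kb upstream of Cdx2 in DKO replicate 2 alone (rank 19.8). The latter lay 2.06 kb from the estimated start of Flt3, outside any gene body. None of the 4 was called in all libraries, the class of 30.9% of all regions.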
